A study of Mus musculus with 14 samples.

Results

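The comparison set TRF2-depleted cortex against control cortex across 8658 genes. These are the genes of the cortex table that had at least 1 coding-sequence row tested by the authors, out of 20492 gene symbols in that table, with 1 row kept per gene, the tested one whose mean level was highest. Levels are FPKM, fragments scaled to coding length and sequencing depth, and every FPKM given here is the authors' pooled value of a group. The log2 ratio of the TRF2-depleted over the control value was recomputed from these levels.

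The cortex was taken from C57BL/6 mice aged 3 months. The control group had 4 samples, which the series design calls wild type, and the TRF2-depleted group had 3, which it names TRF2-DCX-cre. A further TRF2-depleted sample carries labels of both cortex and hippocampus and was assigned to no group, and whether the pooled values hold it is not known. The sources used here do not give the sex of the mice, whether they were littermates or the recombined allele, and nothing ties a sample to an animal, so the authors' p-values measure only the spread between samples as they modelled it.

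TRF2, the product of Terf2, is a subunit of shelterin, the protein complex that coats telomeric repeats. It folds the chromosome end into a protected loop, and its loss in dividing cells exposes the end to the ATM kinase, to p53 activation and to end-to-end joining. Dcx, the gene in the name of the Cre line, encodes a microtubule protein of young migrating neurons, whereas the cortex sampled here also holds glial and vascular cells. In bulk tissue, fewer cells of a type and less RNA per cell cannot be told apart.

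Terf2 had 3.11 FPKM in controls and 0.168 FPKM after depletion, a log2 ratio of -4.21 (p = 0.105 by the authors' deposited table). It therefore did not pass the threshold used here, a deposited q of 0.05 or less. Among the 4 other measured shelterin genes, Pot1a, which binds the single-stranded overhang, had 3.22 and 3.90 FPKM in control and TRF2-depleted cortex. Tinf2, which bridges the telomere-binding subunits, had 2.54 and 1.82 FPKM. The Tinf2 partner Acd had 4.49 and 4.24 FPKM, and Terf2ip, the TRF2-binding subunit RAP1, had 6.98 and 6.46 FPKM. None of the 5 measured shelterin genes had a deposited p under 0.05.

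Markers of cortical excitatory neurons were present in both groups. The glutamate transporter of excitatory synapses, Slc17a7, had 227 and 204 FPKM. Its levels in control and TRF2-depleted hippocampus were 239 and 235 FPKM, so it does not tell these tissues apart. Tbr1, a deep-layer transcription factor, was at 15.6 and 17.1 FPKM. Of 6 Y-linked genes, all untested, 4 were lower, 1 was higher and 1 was listed at 0 in both groups, with sums of 4.73 and 3.82 FPKM. Ddx3y had 2.05 and 1.99 FPKM, Eif2s3y 1.66 and 1.29 FPKM, and Uty 0.567 and 0.000262 FPKM. Over 26348 rows FPKM summed to 161467 in control and 159494 in TRF2-depleted cortex. The authors tested 9536 rows and listed 16803 as not tested, and 9 more, from 7 genes, as too deep to estimate. No tested row fell below 1 FPKM in both groups, so that minimum removed no gene. Ranked by the higher of the group values, the lowest members were Srcin1, at 1.94 and 0.747 FPKM, and Cul9, at 2.10 and 2.16 FPKM. Rows not tested reached 2.43 FPKM at most.

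Most cortical transcripts had nearly the same level in both groups. The ratio lay within 1.5-fold in either direction for 7836 genes, or 90.5%. The median log2 ratio was -0.03, and 4823 genes were lower and 3835 higher in TRF2-depleted cortex. At the deposited q of 0.05, 28 genes passed (0.323%), of which 22 fell (0.254%) and 6 rose (0.0693%). A deposited p under 0.05 was found for 571 genes (6.60%), with 386 lower (4.46%) and 185 higher (2.14%). These shares are the background for the gene groups below.

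**Figure D1:**
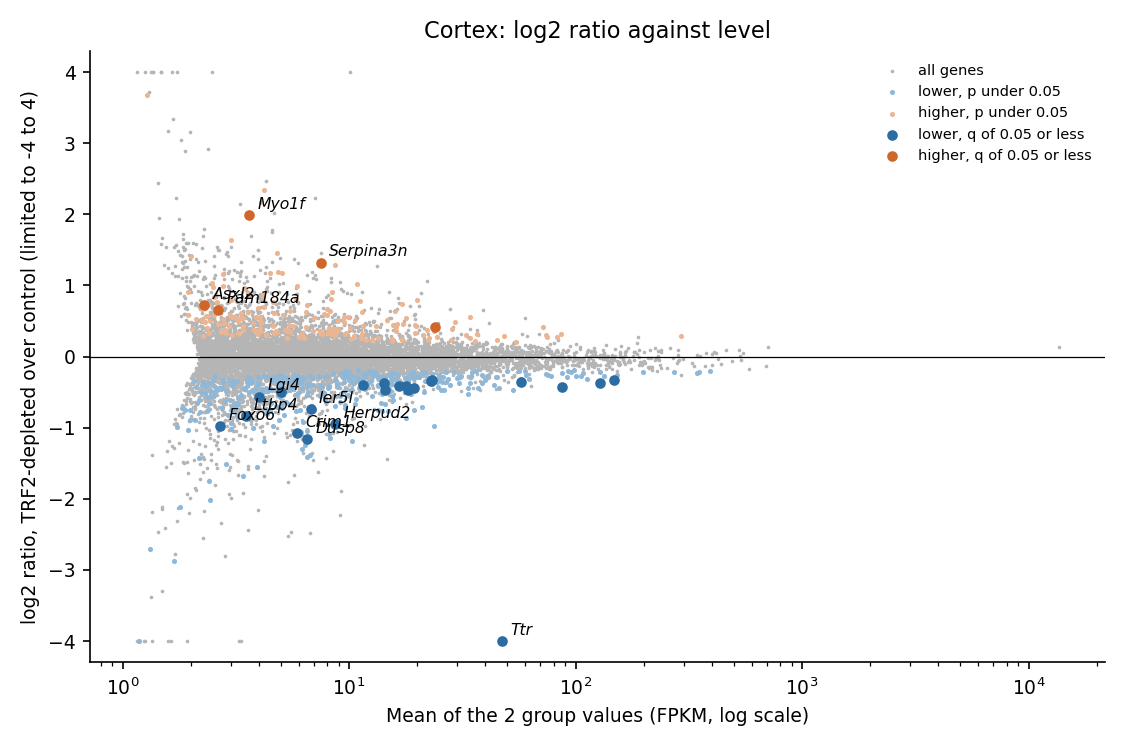
Log2 ratio of TRF2-depleted over control cortex (vertical axis, limited to -4 to 4) against the mean of both group values in FPKM (log axis), 1 point per gene. Pale colours mark a deposited p under 0.05 and full colours the genes with a deposited q of 0.05 or less. Ratios spread most at low levels, and S100a5 is not drawn because its control value is 0.

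The spread of ratios narrowed with level. Between 1 and 5 FPKM the central 90% of genes ran from -0.83 to 0.83, and at 50 FPKM or more from -0.24 to 0.15. Of 306 genes with at least a 2-fold ratio, 40 had a deposited p under 0.05 and 5 passed at q. Among those 306 genes, 144 had several rows, where the division of reads between coding sequences can move a value.

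Base composition of the coding sequence tracked the direction of the ratio across the cortex. Coding GC content was known for 8321 of the 8658 genes. The genes that fell had a median coding GC of 63.4% (21 of 22 with a value), the genes that rose 49.9% (6 of 6), and all genes 53.1%. With a deposited p under 0.05 as the criterion, the medians were 58.9% for 367 lower genes and 49.5% for 179 higher genes. The coding starts below are examples picked from the ends of the coding GC range, so they do not measure this difference. The first 120 bases need not have the GC content of the whole coding sequence. They belong to the genes that fell with the highest coding GC, Basp1 and Foxo6, to the gene that fell with the lowest, Herpud2, and to the genes that rose with the lowest, S100a5 and Asxl2. Each line gives the first 120 coding bases of the longest GENCODE M21 coding sequence (mm10), 5′ to 3′, with G and C in capitals.
Basp1: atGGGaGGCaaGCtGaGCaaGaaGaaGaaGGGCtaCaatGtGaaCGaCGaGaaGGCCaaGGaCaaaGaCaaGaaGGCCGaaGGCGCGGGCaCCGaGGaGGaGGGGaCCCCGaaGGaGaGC
Foxo6: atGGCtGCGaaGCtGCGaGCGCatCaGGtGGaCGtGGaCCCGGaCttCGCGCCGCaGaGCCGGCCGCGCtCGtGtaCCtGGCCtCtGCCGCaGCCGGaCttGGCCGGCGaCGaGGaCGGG
Herpud2: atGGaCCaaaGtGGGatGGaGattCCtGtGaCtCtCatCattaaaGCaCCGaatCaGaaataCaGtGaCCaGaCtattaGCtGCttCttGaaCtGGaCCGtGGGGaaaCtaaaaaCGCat
S100a5: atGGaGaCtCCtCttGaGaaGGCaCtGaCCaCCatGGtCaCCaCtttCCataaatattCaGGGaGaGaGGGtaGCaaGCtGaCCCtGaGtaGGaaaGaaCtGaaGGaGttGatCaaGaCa
Asxl2: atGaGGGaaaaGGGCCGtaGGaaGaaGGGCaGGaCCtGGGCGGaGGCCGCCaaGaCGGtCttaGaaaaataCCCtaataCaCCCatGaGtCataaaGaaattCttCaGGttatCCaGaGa

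The whole coding sequence of Basp1 (minus strand of chromosome 15, first coding base 25364909) is 74.5% GC, while of the 120 bases shown 71 (59.2%) are G or C. That of Foxo6 (minus strand of chromosome 4, first coding base 120287252) is 72.3% GC, with 87 of the 120 bases shown being G or C. Herpud2 (minus strand of chromosome 9, first coding base 25150966) is at 48.8%, with 53 of 120. S100a5 (plus strand of chromosome 3, first coding base 90609824) is at 47.3%, with 57 of 120, and Asxl2 (plus strand of chromosome 12, first coding base 3427156) at 48.0%, with 59 of 120. In the bases shown Herpud2, which fell, thus has fewer G or C than S100a5 and Asxl2, which rose.

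Across all genes the relation was graded. Genes were divided into 5 groups of equal size by coding GC. In the most GC-poor group, with a median of 44.7% GC, the median log2 ratio was 0.05 over 1665 genes. It was 0.01, -0.02 and -0.07 in the next groups and -0.13 over the 1664 genes of the most GC-rich group, at a median of 60.8% GC. In that last group 201 genes were lower and 12 higher with a deposited p under 0.05, and 18 of the 21 genes that fell and had a GC value belonged to it. In the most GC-poor group 19 were lower and 67 higher. The rank correlation of log2 ratio with coding GC across 8319 genes was -0.28 (Spearman's rho), and -0.38 among the 2784 genes with the highest levels. Genes are not independent replicates, and all share the same pooled libraries. Coding length had a rho of -0.02. Single-exon genes made up 4 of 21 genes that fell (Cdk5r2, Jund, Hnrnpa0 and Ier5l) and 2.44% of all genes, and without single-exon genes the rho with GC was -0.27.

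In hippocampus, measured with the same genotypes, the median log2 ratio was -0.01 in the most GC-poor and 0.00 in the most GC-rich genes, and the rho was 0.02 over 9423 genes. The difference between tissues in this relation was not tested. The part of base composition in the results that follow was not tested, so coding GC is given beside many of the genes named. Values called GC-centred are log2 ratios after subtracting the median of all genes in the same GC group. All 21 genes that fell and had a GC value were below 0 on that scale. This was fixed in advance, because the group medians lie between -0.13 and 0.05 and each of these genes had a log2 ratio of -0.32 or lower.

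**Figure D2:**
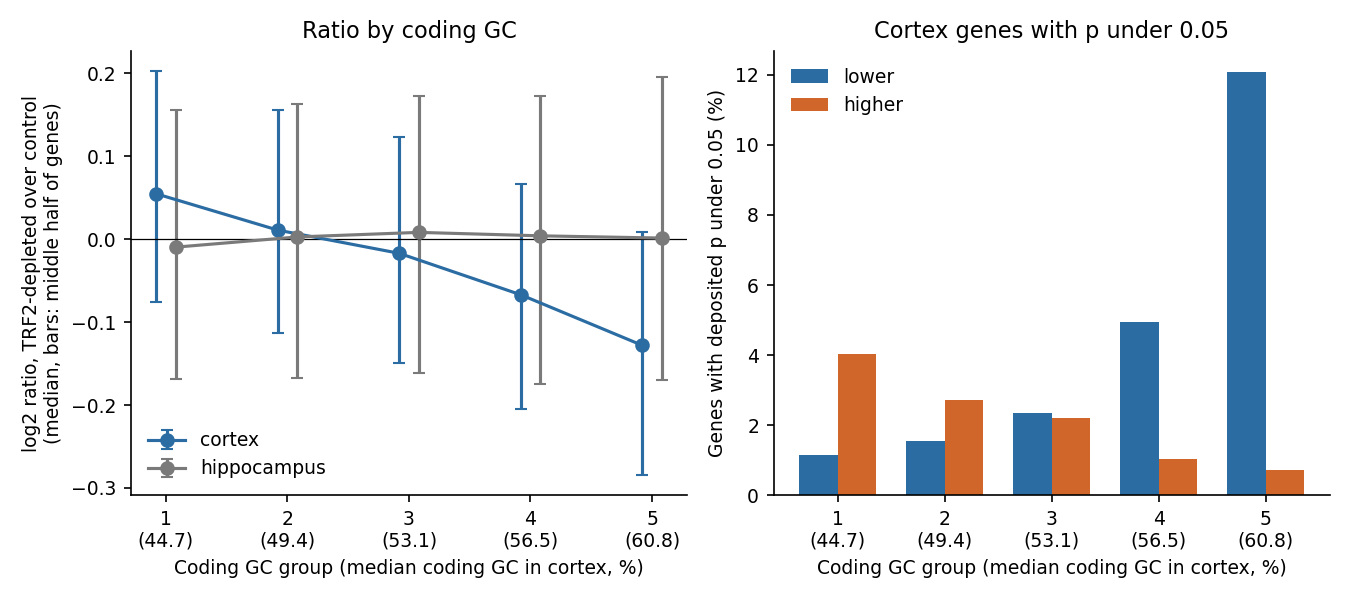
Left, median log2 ratio (points) and interquartile range (bars) for 5 groups of coding GC in cortex and hippocampus. Right, percent of cortex genes in each GC group with a deposited p under 0.05, lower or higher. In cortex the median goes from 0.05 to -0.13, and in hippocampus it stays between -0.01 and 0.01.

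Dusp8, which dephosphorylates the stress-activated MAP kinases, fell from 9.01 to 4.02 FPKM (log2 ratio -1.16, error implied by the deposited p at most 0.29, chr7:142079483-142095805, mm10, coding GC 63.8%). Map3k10, a kinase at the head of the JNK cascade, fell from 20.3 to 15.3 FPKM (coding GC 63.9%, log2 ratio -0.41, GC-centred -0.28). Crim1, a membrane protein that binds bone morphogenetic proteins, fell from 8.01 to 3.79 FPKM (log2 ratio -1.08, error at most 0.27, chr17:78200248-78418152). Its coding GC of 55.9% lay closer to the average. Ltbp4, which holds TGF-beta in the matrix, fell from 4.48 to 2.51 FPKM in its tested row (coding GC 62.4%), a log2 ratio of -0.83 that was -0.34 when both of its rows were summed. Irs2, the adaptor of insulin and IGF1 receptors, fell from 13.1 to 9.92 FPKM (coding GC 63.6%, log2 ratio -0.40, GC-centred -0.27). Gna12, a G protein alpha subunit, fell from 16.1 to 12.4 FPKM (coding GC 59.8%, log2 ratio -0.38, GC-centred -0.25).

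Foxo6, a forkhead factor of the insulin pathway expressed mainly in brain, fell from 3.56 to 1.81 FPKM (log2 ratio -0.98, error at most 0.24, chr4:120267078-120287261). Mnt, a repressor that competes with Myc for Max, fell from 5.88 to 4.17 FPKM (coding GC 63.7%). Hnrnpa0, an RNA-binding protein, fell from 25.8 to 20.6 FPKM (coding GC 71.9%, log2 ratio -0.32, GC-centred -0.20). Jund, the AP-1 subunit that is present also at rest, fell from 25.7 to 20.2 FPKM (coding GC 70.7%, log2 ratio -0.35, GC-centred -0.22).

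Basp1, a membrane-bound protein of growing axon tips, fell from 164 to 131 FPKM (log2 ratio -0.33, GC-centred -0.20, error 0.09, chr15:25363277-25413764). Cdk5r2, the p39 activator of the neuronal kinase CDK5, fell from 64.5 to 50.4 FPKM (coding GC 70.6%, log2 ratio -0.36, GC-centred -0.23). Nptx2, a secreted pentraxin that clusters AMPA receptors, fell from 21.1 to 15.2 FPKM (coding GC 63.4%, log2 ratio -0.47, GC-centred -0.35). Lgi4, a secreted glial protein of the LGI family, fell from 4.77 to 3.23 FPKM (coding GC 60.2%, log2 ratio -0.56, GC-centred -0.43), while its relatives Lgi1 (20.4 and 22.8 FPKM) and Lgi3 (16.9 and 15.9 FPKM) did not pass.

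Herpud2, a homologue of the endoplasmic reticulum stress protein Herpud1, fell from 11.4 to 5.92 FPKM (log2 ratio -0.95, error at most 0.23, chr9:25108124-25151844). At 48.8% coding GC, it was the 1 gene that fell with a coding GC below the median of all genes. B4galt2, a galactosyltransferase, fell from 16.8 to 12.1 FPKM (coding GC 58.6%, log2 ratio -0.48, GC-centred -0.35). It was the 1 of 29 measured glycosyltransferase genes with a deposited p under 0.05 (3.45%, against 6.60% of all genes). Of 26 measured endoplasmic reticulum stress genes, Herpud2 was likewise the 1 with such a p (3.85%), beside a list median of -0.02. Both shares lay below that of all genes. Fau, which encodes ribosomal protein S30 fused to a ubiquitin-like domain, fell from 145 to 112 FPKM (coding GC 58.9%, log2 ratio -0.38, GC-centred -0.25). E130012A19Rik, with 22.2 and 16.4 FPKM, fell and has no coding GC value here. The remaining genes that fell were Ttr, Arc, Per1 and Ier5l.

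Few genes rose. Asxl2, a partner of the Polycomb deubiquitinase BAP1, rose from 1.73 to 2.86 FPKM (log2 ratio 0.73, or 0.60 summed over both rows, error 0.19, chr12:3426857-3506849). Fam184a rose from 2.04 to 3.23 FPKM (log2 ratio 0.66, error 0.18, coding GC 48.2%), and Pcp4l1, a relative of the calmodulin-binding protein Pcp4, from 20.5 to 27.5 FPKM (log2 ratio 0.42, error 0.12, coding GC 54.4%). Serpina3n, a protease inhibitor of reactive astrocytes, rose from 4.29 to 10.7 FPKM (log2 ratio 1.32, error at most 0.33, coding GC 51.7%). The others were S100a5, described below with the olfactory bulb genes, and Myo1f.

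**Figure D3:**
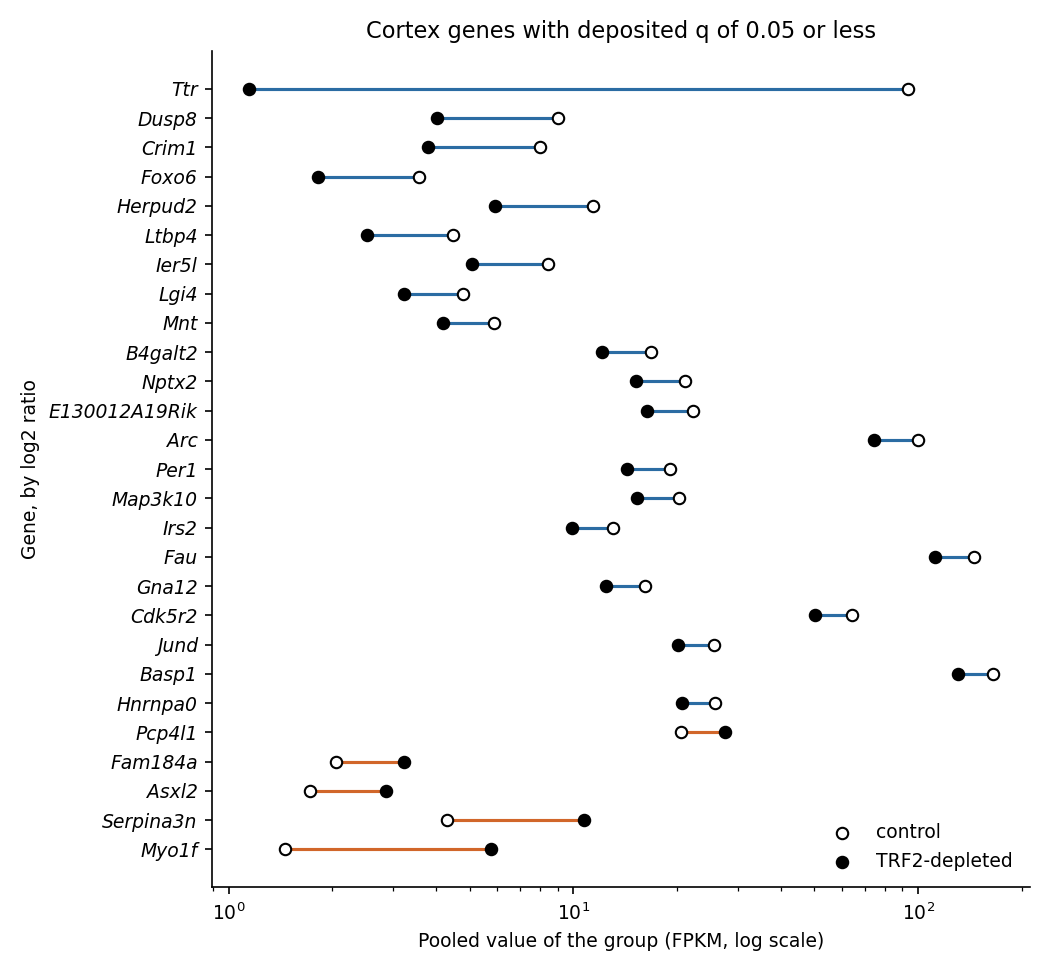
Pooled FPKM (log axis) of control (open) and TRF2-depleted (filled) cortex for genes with a deposited q of 0.05 or less, ordered by log2 ratio, with S100a5 left out because its control value is 0. Blue lines mark genes that fell and orange lines genes that rose. Apart from Ttr, the widest gaps among the genes that fell are those of Dusp8, Crim1, Foxo6 and Herpud2.

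Of the 28 genes, 5 overlap another protein-coding gene in GENCODE M21: B4galt2 (Slc6a9 and Ccdc24), Crim1 (Fez2), Gna12 (Amz1), Lgi4 (Fxyd3) and Map3k10 (Ttc9b). The sources used here do not say whether the authors' counting used strand, so reads from such pairs may not be separable. The deposited q is smaller than an adjustment over this table gives. With a Benjamini-Hochberg adjustment of the deposited Cuffdiff p over the 8658 genes, 14 genes passed, 11 lower and 3 higher. Those 14 hold Dusp8, Crim1, Foxo6, Herpud2, Ltbp4, Nptx2, Irs2, Serpina3n and S100a5 among others, and leave out Basp1, Cdk5r2, Hnrnpa0, Fau, Mnt, Asxl2, Fam184a and Pcp4l1.

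Just short of the threshold, the 10 lower genes with the smallest p were led by Mtmr7, a phosphoinositide phosphatase, with 8.85 and 3.58 FPKM (log2 ratio -1.30, q = 0.0526 by the authors' deposited table). The list went on with Map1lc3a, the autophagosome protein LC3A (61.2 and 44.1 FPKM), Pou3f1, a POU factor (5.78 and 4.13 FPKM), Nfix (26.4 and 20.2 FPKM), Car11 (34.4 and 26.8 FPKM), Ccdc124 (42.6 and 31.4 FPKM) and the early response genes Egr2, Egr4, Dusp1 and Ier2. Of these 10, Mtmr7 and Map1lc3a lay outside the most GC-rich group. The 10 higher genes were led by Dgkb, a diacylglycerol kinase that is strong in striatum (13.4 and 18.2 FPKM, q = 0.0577 by the authors' deposited table). They included Fabp7, a fatty acid-binding protein of radial glia and astrocytes (12.8 and 21.3 FPKM), the cyclin Ccnh (log2 ratio 0.45), the mitochondrial assembly factor Bcs1l (4.27 and 6.67 FPKM) and Cox7b (76.9 and 95.9 FPKM). Ankrd49 (2.51 and 4.63 FPKM), 0610009B22Rik (8.23 and 14.1 FPKM), Olfr613 (5.52 and 7.37 FPKM) and Lrrc10b were also among them. So was Adam9, whose log2 ratio of 1.18 was 0.06 when its rows were summed.

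Cortical layer genes were mixed in direction. Of 11 measured upper-layer genes 0 passed, and 2 had a deposited p under 0.05, both lower: the plexin Plxnd1 (7.56 and 6.13 FPKM) and Lhx2 (12.6 and 9.88 FPKM). The list median of -0.19 was -0.12 GC-centred and 0.00 when rows were summed, and Mef2c, at 6.04 and 1.11 FPKM in its main row, had a summed log2 ratio of -1.17. Of 12 measured deep-layer genes 0 passed. The 2 with a deposited p under 0.05 were lower: Fezf2, which specifies neurons projecting below the cortex (9.35 and 6.94 FPKM), and Ctgf, a marker of layer 6b (9.78 and 7.74 FPKM). Pcp4 (175 and 200 FPKM) and Tle4 (7.33 and 9.85 FPKM) pointed the other way without a p under 0.05. The list as a whole had 6 higher and 6 lower members, with a median of 0.04 and a GC-centred median of 0.18.

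Across 20 measured interneuron genes the median was 0.01 (GC-centred 0.08), with 11 higher and 9 lower. Cuffdiff called 0, and 2 had a deposited p under 0.05, both higher. These were the calcium-binding proteins Calb2 (2.55 and 3.75 FPKM, p = 0.0253 by the authors' deposited table) and Pvalb, which marks fast-spiking cells (29.3 and 36.2 FPKM, p = 0.0384). Sst, with 118 and 120 FPKM, Vip, with 16.5 and 15.0 FPKM, and Gad1, with 32.7 and 34.9 FPKM, were close to even.

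Genes of striatal medium spiny neurons stood higher in TRF2-depleted cortex, although 0 passed at q. Of 15 measured members 13 were higher, against 3835 of all 8658 genes. The median log2 ratio was 0.26 and the GC-centred median 0.33, where all genes had -0.03 and 0.00. A deposited p under 0.05 was found for 5, all higher. Lrrc10b, a striatum-enriched gene, had 1.68 and 3.32 FPKM (p = 0.0008 by the authors' deposited table) and Syndig1l 2.40 and 3.59 FPKM (p = 0.0032). In control and TRF2-depleted hippocampus Lrrc10b had 12.9 and 9.73 FPKM, so it does not mark striatum alone among neighbouring tissues. The dopamine D1 receptor gene Drd1a had 4.53 and 5.89 FPKM, Rgs9, which shortens dopamine receptor signalling, 3.29 and 4.81 FPKM, and Rasd2 14.2 and 16.9 FPKM. With coding GC of 68.5% and 61.7%, Lrrc10b and Syndig1l were higher against the direction of most GC-rich genes. The dopamine D2 receptor gene Drd2 was at 2.24 and 2.35 FPKM. Summed over the 27 listed genes found in the table, tested or not, striatal markers came to 133 FPKM in controls and 158 FPKM after depletion.

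Markers of other tissue next to the cortex differed in some lists and not in others. Hippocampal neuron genes summed to 112 and 113 FPKM, with 6 higher and 10 lower. Thalamic neuron genes summed to 65.7 and 64.1 FPKM, with 7 higher and 8 lower, and Cacng3 alone had 36.9 and 34.3 FPKM. S100a5, a calcium-binding protein of olfactory sensory neurons and their targets, is listed at 0 for controls and reached 3.07 FPKM after depletion, so no fold is given. Other olfactory bulb markers were untested and low. Doc2g had 0.493 and 2.41 FPKM, Cdhr1, a cadherin of mitral and tufted cells, 0.302 and 1.49 FPKM, and Th, the dopamine-synthesis enzyme of periglomerular cells, 0.262 and 0.818 FPKM. Eomes had 0.0333 and 0.285 FPKM, and Tbx21, listed at 0 for controls, had 0.143 FPKM after depletion. All 6 were higher, with sums of 1.09 and 8.22 FPKM. Over the whole list of olfactory bulb and newborn neuron genes 12 of 18 were higher, with sums of 332 and 312 FPKM. Most of both sums came from Stmn1, Stmn2 and Tubb3.

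Choroid plexus genes pointed the other way. Ttr fell from 93.3 to 1.15 FPKM, and 13 further epithelial markers, all untested, were lower in TRF2-depleted cortex. Among them the anti-ageing coreceptor Kl had 1.12 and 0.246 FPKM, the folate receptor Folr1 0.644 and 0.166 FPKM, and the chloride channel protein Clic6 0.836 and 0.184 FPKM. Kcne2 and Otx2 are listed at 0 in TRF2-depleted cortex. The 14 genes summed to 101 and 3.31 FPKM. Over the whole choroid plexus and ependyma list, which does not hold Ttr, 19 of the 23 genes found were lower and 4 higher, with sums of 56.6 and 47.0 FPKM. Of these sums Enpp2 alone made up 41.3 and 38.3 FPKM. Both sets, of 6 and 14 genes, were narrowed after their values were seen and are given as description. The part of striatal, olfactory bulb or choroid plexus tissue in the other results was not tested.

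**Figure D4:**
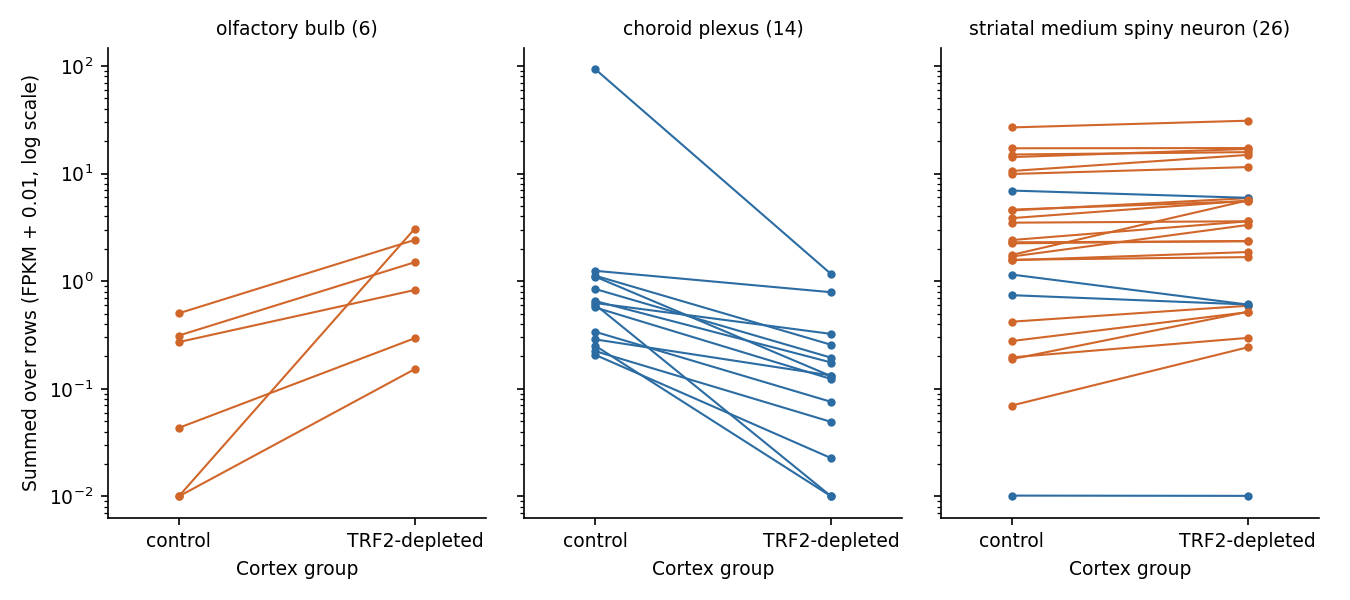
Pooled FPKM plus 0.01 (log axis), summed over the rows of each gene, in control and TRF2-depleted cortex for olfactory bulb, choroid plexus and striatal markers, 1 line per gene, orange where higher and blue where lower. All 6 olfactory bulb genes are higher and all 14 choroid plexus genes lower in TRF2-depleted cortex, in sets narrowed after their values were seen. In the whole lists 12 of 18 genes are higher and 19 of 23 lower. The striatal gene Penk is not drawn because its TRF2-depleted value is 0.

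Of 31 measured oligodendrocyte genes 22 were lower, with a median of -0.16 and a GC-centred median of -0.14. Cuffdiff called 0, and 7 had a deposited p under 0.05, 6 of them lower. The lineage transcription factors Sox10 (5.55 and 4.15 FPKM), Olig1 (21.7 and 17.8 FPKM) and Olig2 (5.30 and 4.18 FPKM) were lower, and Zfp488, a cofactor of Olig2, was higher (10.3 and 12.3 FPKM). The small heat shock protein Cryab, abundant in mature oligodendrocytes, had 39.6 and 27.4 FPKM (p = 0.0015 by the authors' deposited table). Of 4 measured precursor genes 3 were higher, with a median of 0.09 (GC-centred 0.15). The 1 lower was Gpr17, at 6.31 and 5.14 FPKM. The tight junction gene Cldn11 had 63.9 and 55.5 FPKM. The myelin genes Mbp, at 318 and 265 FPKM, and Mog, at 20.5 and 18.3 FPKM, did not have a p under 0.05. Coding GC was 63.3% in Sox10 and 68.5% in Olig1, and their GC-centred log2 ratios were -0.29 and -0.16.

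Homeostatic astrocyte genes were even. All 25 listed genes were measured, with a median of -0.03 (GC-centred 0.02) and 0 past the threshold. The 1 with a deposited p under 0.05 was Apoe, the lipid carrier, at 371 and 317 FPKM (coding GC 62.6%, GC-centred log2 ratio -0.10). The water channel Aqp4 had 14.5 and 16.3 FPKM. Of 10 measured reactive astrocyte genes, Serpina3n alone rose. S100a10, an annexin partner, was higher at 14.5 and 21.1 FPKM (p = 0.0043 by the authors' deposited table), Ptgs2, the inducible cyclooxygenase that neurons also express, was lower at 5.25 and 3.83 FPKM (p = 0.00335), and Gfap, the main filament of reactive astrocytes, was at 20.9 and 19.9 FPKM. Thus the rise of Serpina3n came with a list median of 0.00 (GC-centred 0.08).

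Across 20 measured microglial genes the median was -0.07 (GC-centred 0.01), with 9 higher, 11 lower, 0 called by Cuffdiff and 1 with a deposited p under 0.05. That gene, C1qa, which opens the classical complement cascade, had 12.2 and 9.80 FPKM. The signalling adaptor Tyrobp had 11.2 and 8.15 FPKM, and Fcrls, a microglial Fc receptor-like protein, 4.26 and 5.32 FPKM. Endothelial genes had a median of 0.01 (GC-centred 0.02) over 15 members, of which the transporter Abcg2 (3.43 and 4.74 FPKM) and the surface antigen Ly6a (9.80 and 13.2 FPKM) were higher with a deposited p under 0.05. Meningeal genes had a median of -0.08 (GC-centred 0.00) over 14 members. The calcification inhibitor Mgp, at 4.24 and 7.40 FPKM, was the 1 with a p under 0.05, and Ptgds, the prostaglandin D synthase of the meninges, was at 268 and 239 FPKM. The haemoglobin gene Hbb-bt had 6.85 and 10.3 FPKM (p = 0.0622 by the authors' deposited table).

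**Figure D5:**
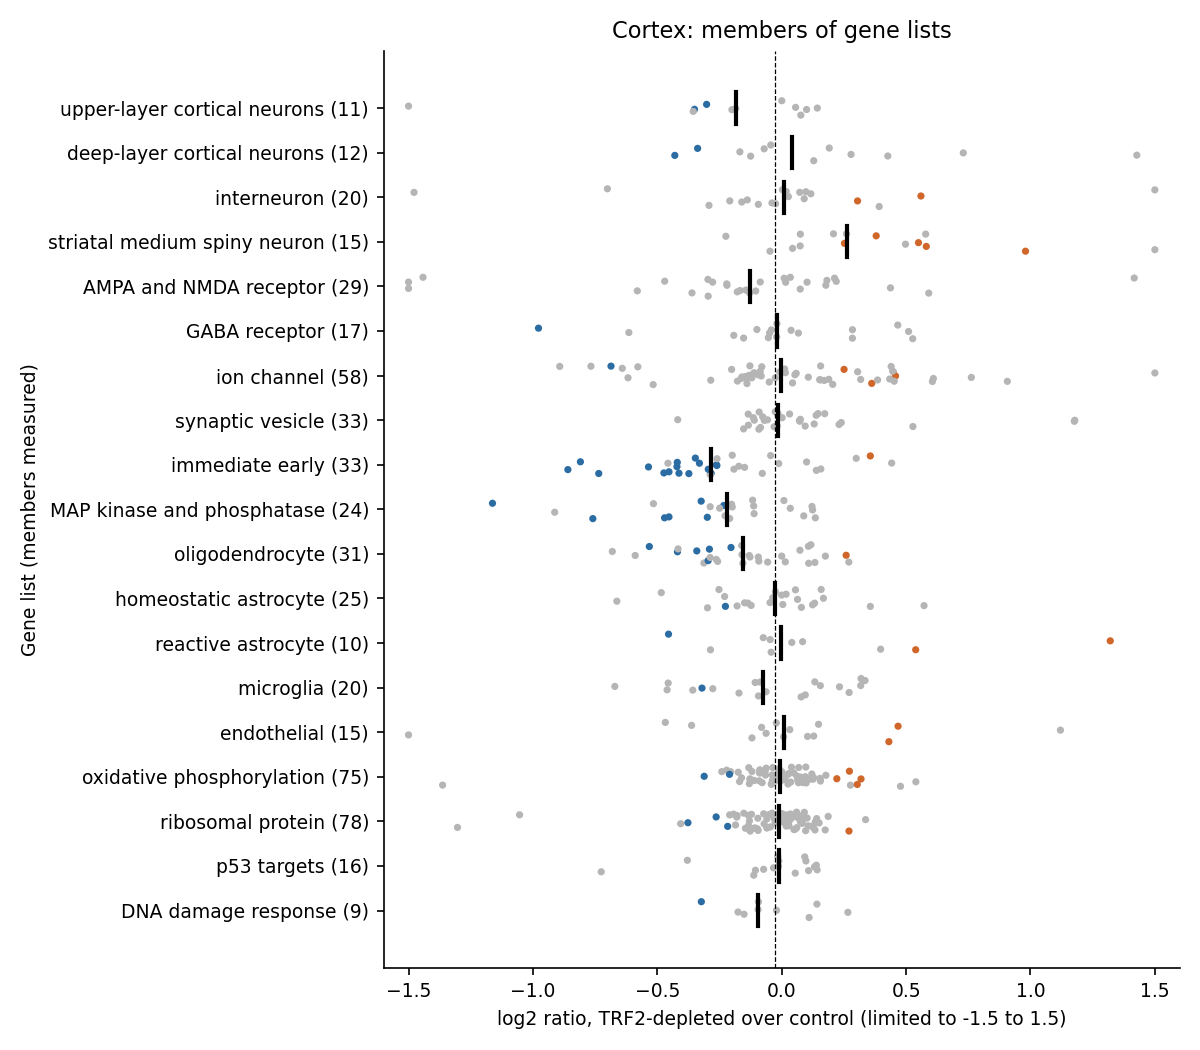
Log2 ratio of TRF2-depleted over control cortex (limited to -1.5 to 1.5) for the measured members of 19 gene lists, 1 point per gene, blue or orange where lower or higher with a deposited p under 0.05. Black bars are list medians and the dashed line is the median of all genes at -0.03. The striatal list lies to the right, and the immediate early, MAP kinase and oligodendrocyte lists to the left.

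Of the lists, the activity-regulated genes had the highest share of members with a deposited p under 0.05, at 54.5%. Of 33 measured members 5 fell at q (Arc, Jund, Nptx2, Per1 and Ier5l) and 18 had a deposited p under 0.05, 17 of them lower. Ier2, a nuclear early response protein, had 4.66 and 2.66 FPKM. These genes are GC-rich: 26 of the 32 with a value belong to the most GC-rich group, where their median log2 ratio was -0.29 and that of the other genes -0.13. The list median of -0.28 became -0.16 after GC-centring.

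MAP kinases and their phosphatases were lower in 18 of 24 measured members, with a median of -0.22 and a GC-centred median of -0.16. Beside Dusp8, which fell, 6 had a deposited p under 0.05 and all were lower. Dusp26, a neuronal phosphatase, had 17.0 and 13.6 FPKM (p = 0.00565 by the authors' deposited table), Dusp4 5.60 and 4.55 FPKM, and Mapk3, the kinase ERK1, 22.6 and 19.2 FPKM. Dusp1 belongs to the early response genes as well. For Mapk9 (JNK2), at 18.7 and 11.0 FPKM in its main row, and for Map2k7, at 6.23 and 4.50 FPKM, the log2 ratios of -0.76 and -0.47 became -0.02 and 0.02 when rows were summed. The neighbouring insulin and FoxO pathway had a median of -0.02 (GC-centred 0.01) over 22 genes. Beside Foxo6 and Irs2, Pik3r2, a regulatory subunit of PI3 kinase, was lower at 20.8 and 17.3 FPKM (p = 0.0085 by the authors' deposited table). The main row of Sgk1, a kinase activated through PI3 kinase, was lower as well, at 14.4 and 6.30 FPKM. Summed over its 5 rows Sgk1 had a log2 ratio of 0.12.

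Of 34 measured TGF-beta and BMP genes 22 were lower and 12 higher, with a median of -0.10 (GC-centred -0.08). The 2 with a deposited p under 0.05 (5.88%, against 6.60% of all genes) were Crim1 and Ltbp4. Of 9 measured binding proteins and antagonists 8 were lower, among them Crim1 and Ltbp4, which fell. The median of the 9 was -0.44 (GC-centred -0.42), and -0.34 when rows were summed. The 5 measured ligands had a median of -0.03 and the 20 receptors and Smads 0.04, and 0 of these 25 had a deposited p under 0.05. Smad7, the inhibitory Smad, had 6.28 and 5.36 FPKM. Among Myc-network genes, Mnt fell and Mycn had 2.91 and 1.96 FPKM (p = 0.00795 by the authors' deposited table), both GC-rich at 63.7% and 63.3%. Of 19 measured clock genes 16 were lower, with a median of -0.17 and a GC-centred median of -0.12. Per1 was the 1 member with a deposited p under 0.05, and Ciart, a repressor of the clock, had 5.29 and 4.04 FPKM.

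Transmitter receptors, channels and release proteins showed little. Glutamate receptors and their auxiliary subunits had a median of -0.13 (GC-centred -0.09) over 29 genes, with 0 called by Cuffdiff and 0 at a deposited p under 0.05. The obligatory NMDA receptor subunit Grin1 had 34.1 and 27.7 FPKM (p = 0.0687 by the authors' deposited table). GABA receptor genes had a median of -0.02 (GC-centred -0.03) over 17 members. Ion channels had a median of 0.00 (GC-centred 0.06) over 58 genes, with 4 at a deposited p under 0.05. The potassium channels Kcna4 (4.15 and 5.33 FPKM) and Kcnd2 (15.7 and 18.7 FPKM), which carry fast inactivating currents, and the calcium channel subunit Cacna2d1 (14.6 and 20.1 FPKM) were higher, and Cacnb3 was lower (11.8 and 7.34 FPKM). Synaptic vesicle genes had a median of -0.02 (GC-centred 0.04) over 33 members with 0 at a deposited p under 0.05.

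Axon guidance genes had a median of -0.04 (GC-centred -0.002) over 37 members. A deposited p under 0.05 was found for 5 (13.5%), all lower, against 6.60% of all genes, and Cuffdiff called 0. Of 8 measured slit and netrin genes 6 were higher, with a median of 0.27, and Unc5b was 1 of the 2 lower. The netrin receptor Unc5b had 2.66 and 2.02 FPKM, and the ephrin receptors Ephb3 and Ephb6 had 4.76 and 3.89 FPKM and 20.7 and 17.7 FPKM. Their GC-centred log2 ratios were -0.27, -0.22 and -0.10. Beside Basp1, the cytoskeletal genes Tmsb10, a thymosin that binds actin monomers (109 and 90.9 FPKM), and Nefm, a neurofilament subunit (11.7 and 9.04 FPKM), were lower with a deposited p under 0.05.

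Housekeeping assemblies were level. Oxidative phosphorylation genes had a median of -0.01 (GC-centred 0.03) over 75 members, with 4 higher and 2 lower at a deposited p under 0.05. Cox7b (47.5% coding GC) was at 76.9 and 95.9 FPKM and Cox8a (65.2%) at 376 and 326 FPKM, so subunits of the same complex stood on opposite sides. Ribosomal protein genes had a median of -0.01 (GC-centred 0.02) over 78 members, of which Fau alone passed. Among the others, Rpl36a (48.7% coding GC) had 67.5 and 81.4 FPKM and Rps28 (57.0%) 166 and 138 FPKM. Proteasome genes had a median of 0.01 over 31 members.

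Genes that answer to exposed telomeres or DNA breaks showed no member past the threshold. Only 0.323% of all genes passed it, so lists this short can hold none without differing from all genes. Of 30 listed p53 targets 16 were measured, 7 of them higher and 9 lower, with a median of -0.01 (GC-centred 0.04). Cuffdiff called 0, and 0 had a deposited p under 0.05, against 6.60% of all genes. Cdkn1a, which encodes the cell cycle inhibitor p21, was at 8.99 and 8.32 FPKM, Mdm2, which degrades p53, at 4.76 and 4.95 FPKM, and the pro-apoptotic Bax at 7.19 and 7.88 FPKM. Of 25 listed DNA damage genes 9 were measured. Among these H2afx, the histone marked at breaks, was the 1 with a deposited p under 0.05, at 11.1 and 8.90 FPKM and with 69.9% coding GC. None of the 5 listed damage kinases was tested. The 5 measured interferon-stimulated genes were all higher, with a median of 0.29 (GC-centred 0.31) that was 0.14 when rows were summed, and 0 had a p under 0.05. Over the 27 listed interferon-stimulated genes found, tested or not, 17 were higher and 10 lower with rows summed. Of 7 measured proliferation genes, the cyclin Ccnd1 was higher at 6.78 and 8.43 FPKM (p = 0.0093 by the authors' deposited table).

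The cortex was set against the hippocampus of the same genotypes, which shares no assigned sample with it. For 8330 genes measured in both tissues the difference of log2 ratios was set against the errors implied by Cuffdiff's p, and 2 differed at an adjusted p of 0.05 (0.0240%). This is a normal approximation, since a permutation test needs values per sample. Tmsb10 was 109 and 90.9 FPKM in cortex and 91.8 and 128 FPKM in hippocampus, a difference of -0.75 (95% interval -1.07 to -0.43). Ttr was the other. Lrrc10b, with 12.9 and 9.73 FPKM in hippocampus, had a difference of 1.39 and missed the threshold. Of the 22 genes that fell in cortex, 15 were also lower in hippocampus, as were 4161 of all 8330 genes compared. Because the 22 genes were picked for passing as lower in cortex, their median log2 ratio there, -0.45, is low by construction. The median of the same genes, not picked on hippocampus values, was -0.08 in hippocampus. Dusp8 had 13.6 and 8.28 FPKM there, Crim1 12.3 and 10.8 FPKM, Foxo6 8.19 and 7.62 FPKM and Herpud2 10.2 and 9.21 FPKM. Of the 26 genes called in cortex with a tested difference, Ttr alone differed between the tissues.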

How the data were processed

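Total RNA from RNeasy columns was made into NEBNext Ultra libraries, per the labels' protocols. CASAVA 1.8, TopHat2, Cufflinks and Cuffdiff and the build mm10 are named in the submitters' processing notes; the sources used here give no other version, setting or annotation. The deposited FPKM are 1 value per group and coding-sequence row, per the file headers, so read depth is unknown and no spread between samples can be given. The deposited p-value and q-value are Cuffdiff's, per the file headers. The deposited q departs from Benjamini-Hochberg values computed over all tested rows by up to 0.335, and the smallest p is 5e-05.

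For each gene the tested row of highest mean FPKM was kept. Counting used a q of 0.05 or less. The error of a log2 ratio is its size over the normal quantile of the deposited two-sided p, an upper bound at the smallest p. Tissue differences used these errors, a two-sided normal test and Benjamini-Hochberg adjustment. The calculation was run on simulated ratios with independent normal errors. That check covers neither the conversion of Cuffdiff's p to an error nor animals shared between tissues. Coding GC came from the longest GENCODE M21 coding sequence per symbol, of which 21951 of 22500 start with ATG. Symbols turned into dates (15 genes) were kept as they are.

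The text names Terf2, genes past the threshold, the 10 next genes in each direction, and in each list described its called members and up to 4 others by p; further list members were named after their values were seen. The members and the 46 lists were chosen with earlier results of these data known. Alternatives covered thresholds, minimum FPKM, rows, pseudocount and centring. In hippocampus, 52696 rows on other comparisons were not used here. Calculations used matplotlib 3.10.9, scipy 1.17.1, pandas 2.3.3, numpy 2.4.6 and Python 3.11.15.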

Additional observations from a re-analysis of the deposited data

Results flagged for a closer look

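The response of 2 genes differed between cortex and hippocampus by the normal test on errors implied by the deposited p. The log2 ratio of Tmsb10 was -0.27 in cortex and 0.48 in hippocampus, a difference of -0.75. The log2 ratio of Ttr was -6.34 in cortex and 0.84 in hippocampus, a difference of -7.18. The test takes the tissues as independent, although a mouse may have given both.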

How the results depend on the processing

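The number of genes past the deposited q went from 28 to 14 at a q of 0.01, to 64 at a q of 0.1, to 14 with an adjustment over the genes and to 12 with at least a 1.5-fold ratio, and was between 22 and 29 with another minimum FPKM, all rows or single-row genes. In the set with at least a 1.5-fold ratio 5 were higher and 7 lower. The fold minimum removes genes by construction. The count at a deposited p under 0.05 lay between 411 and 571. The difference in median log2 ratio between the most GC-rich and the most GC-poor genes was -0.18, and between -0.18 and -0.16 under the 5 alternatives, which were chosen after seeing the data. Genes past the difference between tissues numbered 3 rather than 2 with at least 5 FPKM in both, also added later. Of list medians, 3 moved by more than 0.1 when rows were summed, 3 after GC-centring and 9 with at least 5 FPKM. Of the named genes' log2 ratios, 33 moved by more than the implied error after GC-centring and 170 did not, 14 moved when rows were summed and 6 with the pseudocount. No gene past the threshold with a ratio changed sign under the pseudocount, summed rows or either centring. A pseudocount cannot change a sign, and either centring shifts a ratio by at most 0.13, less than the smallest of these ratios. Most of these genes have 1 row, so summing leaves them as they are. No paired analysis was possible because the deposited values are pooled over samples, and no sample could be left out for the same reason.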
